A study of Mus musculus with 12 samples.

Results

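The genes described here encode the protein kinases, other than the VEGF and PDGF receptors, that sunitinib is known to inhibit, together with ligands of those kinases. They were chosen by name, as the mouse genes *Kit*, *Csf1r*, *Ret* and *Flt3* for the receptors and *Kitl* and *Csf1* for the ligands, and all 6 were found among the 38924 Ensembl genes in the tables. All 6 also passed the filter on low counts and belonged to the 16645 genes that were tested. RNA-seq had been performed on 12 insulinomas (mouse PanNETs) of the RIP1Tag2 model on the C57Bl6 strain, in which the rat insulin promoter drives a viral oncogene in beta cells, so that all 3 groups carry the same transgene. The control group comprised 4 tumors from saline-treated mice, the sunitinib group 4 tumors from mice given sunitinib alone, and the R+S group 4 tumors from mice given rapamycin, an mTOR inhibitor, plus sunitinib. Treatment started at 15.5 weeks and lasted 4 days. The comparison of sunitinib with control asks how transcripts of these targets and ligands differ after treatment, and that of R+S with sunitinib asks what differs when rapamycin is added. Tumors are named by the replicate numbers of their labels. A prefix in the labels is shared by the 4 control tumors, by sunitinib tumors 5, 6 and 8, and by R+S tumors 5 and 7, but whether it stands for a mouse is not stated. Each prefix is found in 1 group alone, so prefix and treatment cannot be told apart, and p-values measure only the spread between these tumors.

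Each receptor of this group is a tyrosine kinase that spans the cell membrane and is switched on when a ligand brings receptor chains together. KIT binds stem cell factor, the product of *Kitl*, and is best known in mast cells, melanocytes, germ cells and blood progenitors. CSF1R binds CSF1 and IL-34 and is the survival receptor of macrophages, while FLT3 binds FLT3 ligand and acts in dendritic cells and their progenitors. RET binds ligands of the GDNF family only together with a GFRA co-receptor and is known from neurons and neuroendocrine cells. Sunitinib blocks the kinase activity of these proteins. The counts measure RNA, and neither protein nor kinase activity was measured here.

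*Csf1* and *Flt3* were the members whose transcripts fell with sunitinib (below), and for this reason the 250 bases before their transcription starts are shown, from RefSeq on GRCm38.p6, 5′ to 3′ on the strand of the gene. A RefSeq promoter was matched for 4 of the 6 members. Capitals mark matches, on either strand, to 5 motifs: ACGTG (the HIF core), TGANTCA (AP-1), GGGCGG (the SP1 GC box), TATAAA (the TATA box) and GGGA followed by any 2 bases and TTCC (NF-kB).
Csf1, chr3:107760470-107760719, minus strand: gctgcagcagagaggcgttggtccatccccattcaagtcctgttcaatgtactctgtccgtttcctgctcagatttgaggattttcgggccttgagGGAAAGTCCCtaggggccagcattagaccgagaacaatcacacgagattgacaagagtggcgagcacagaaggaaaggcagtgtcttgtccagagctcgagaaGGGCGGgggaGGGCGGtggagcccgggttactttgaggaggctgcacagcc
Flt3, chr5:147400490-147400739, minus strand: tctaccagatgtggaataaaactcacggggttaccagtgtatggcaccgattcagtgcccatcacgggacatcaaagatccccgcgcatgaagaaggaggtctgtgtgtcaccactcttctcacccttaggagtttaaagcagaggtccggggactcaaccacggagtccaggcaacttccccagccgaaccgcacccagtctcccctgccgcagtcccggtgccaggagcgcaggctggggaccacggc
The *Csf1* stretch held 1 NF-kB match, whose first base lies at -154 from the start site and which was found on the opposite strand, and 2 GC boxes at -51 and -41. The *Flt3* stretch held none of the 5 motifs. Of 32851 mouse promoter stretches of this length, 1.21% held the NF-kB motif, 32.7% the GC box, 16.6% the HIF core, 6.75% the AP-1 motif and 12.4% the TATA box. The NF-kB motif was also found in the RefSeq stretch of *Kitl*, at -152, with GC boxes at -143, -45 and -41 and a TATA box at -25. Of the 250 bases of that stretch, 191 lie inside the gene as annotated in GENCODE M21. These matches describe letters in these stretches only.

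In the annotation of GRCm38 (GENCODE M21), *Kit* (ENSMUSG00000005672) lies at chr5:75574916-75656722 on the plus strand, *Kitl* (ENSMUSG00000019966) at chr10:100015630-100100416 on the plus strand, and *Csf1r* (ENSMUSG00000024621) at chr18:61100598-61132149 on the plus strand. *Csf1* (ENSMUSG00000014599) lies at chr3:107741048-107760469, *Ret* (ENSMUSG00000030110) at chr6:118151745-118197718 and *Flt3* (ENSMUSG00000042817) at chr5:147330741-147400489, all on the minus strand. All 6 are protein-coding genes. *Csf1r* overlaps *Hmgxb3* on the opposite strand, and 14.3% of the 50-base words of its transcripts, read on either strand, occur in *Hmgxb3* transcripts. The libraries were stranded, but the strand setting of the counting is not given in the sources used here, so *Csf1r* values are less certain for this stretch. *Flt3* overlaps an antisense gene model, and 0.049% of its words occur in another gene. The 4 other genes shared no such word.

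Counts on genes summed to between 31872342 and 44215054 per tumor. Levels are given as CPM (counts scaled to a common library size after TMM normalization). Sunitinib tumor 6 stood apart: its log2 CPM over all genes correlated with the other sunitinib-treated tumors at r = 0.872 to 0.895, against 0.957 to 0.978 among those 3. Markers of insulin-producing cells, which define the labelled tumor type, were present in every tumor, but their summed level was 2170 CPM in sunitinib tumor 6 against 31095 to 76774 in the 11 others. Markers of acinar cells, the enzyme-secreting cells of the surrounding pancreas, summed to 40.9 to 114 CPM in control, 9135 to 33540 in sunitinib-treated and 2317 to 14211 in R+S-treated tumors, and 13 of 14 rose in both comparisons with control (with sunitinib *Ctrb1*, *Cpb1* and *Cela3b* by 10.44, 10.28 and 10.14 on the log2 scale). Endothelial markers summed to 345 to 485, 55.0 to 92.5 and 114 to 152 CPM in the same order. Of 11 endothelial markers, 9 fell in each comparison with control and 7 were higher with R+S than with sunitinib (*Emcn*, *Tie1* and *Robo4* fell by 3.94, 3.53 and 2.93 on the log2 scale with sunitinib). Of all tested genes, 1.93% were higher and 2.55% lower with sunitinib, and 1.55% and 2.61% with R+S against control. With R+S against sunitinib, 2.63% were higher. The part of these differences in cell markers in the results that follow was not tested.

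In control tumors the 6 genes spanned a wide range of expression. On the scale of CPM per kilobase of exon, which allows levels of different genes to be compared, *Ret* was highest at 37.5 ± 5.52 (SD, n = 4). *Csf1r* followed at 10.4 ± 2.13, *Csf1* at 7.30 ± 0.756, *Kit* at 4.46 ± 1.84 and *Kitl* at 2.83 ± 0.660. *Flt3* was lowest at 0.0877 ± 0.0300, which corresponds to 15 to 38 reads per tumor. *Kit* and *Kitl* overlapped between control tumors, whereas the other neighbours in this order did not, although *Csf1r* (8.43 to 13.4) and *Csf1* (6.53 to 8.26) nearly touched. With R+S the order was *Ret* (36.5 ± 7.71), *Kit* (8.18 ± 0.677), *Csf1r* (7.19 ± 1.68), *Csf1* (7.09 ± 1.23), *Kitl* (1.24 ± 0.199) and *Flt3* (0.0445 ± 0.0266), and *Kit*, *Csf1r* and *Csf1* overlapped. With sunitinib the means were 21.7 ± 13.8 for *Ret*, 7.10 ± 4.58 for *Kit*, 5.59 ± 2.16 for *Csf1r*, 4.80 ± 0.542 for *Csf1*, 2.43 ± 1.87 for *Kitl* and 0.0196 ± 0.00958 for *Flt3*, and only *Flt3* stood clear of its neighbour.

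**Figure D1:**
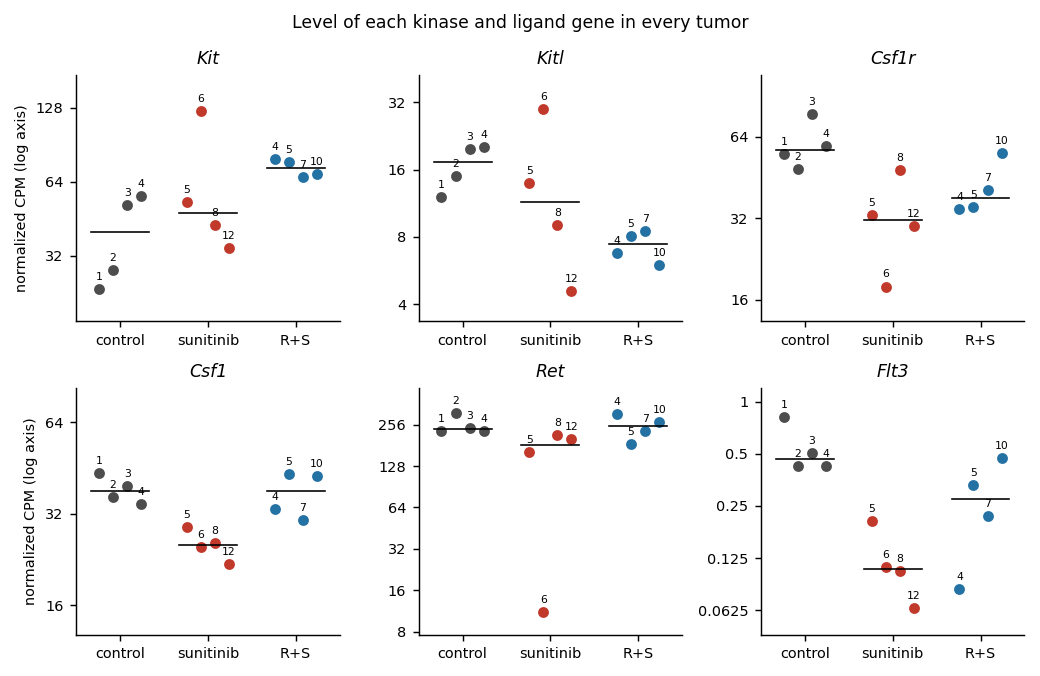
Normalized CPM (log axis) of each gene in every tumor, with tumor numbers beside the points and a line at the group median. *Csf1* and *Flt3* lay lower in all 4 sunitinib-treated tumors than in any control tumor, and sunitinib tumor 6 held the lowest *Ret* value and the highest *Kit* and *Kitl* values.

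With sunitinib, 2 of the 6 genes fell against control and none rose, by the quasi-likelihood test of edgeR with Benjamini-Hochberg adjustment and a threshold of 0.05. *Csf1* fell to 0.658 and *Flt3* to 0.230 of the control level. Among all 16645 genes, 2.55% were lower and 1.93% higher. The groups did not overlap for 4 of the 6 (*Csf1r*, *Csf1*, *Ret* and *Flt3*, each lower), against 10.9% of all genes in either direction. With R+S, none of the 6 differed from control by this test. An unadjusted p under 0.05 was reached by 2, beside 3347 of all 16645 genes, and DESeq2 also called none. Of all genes, 1.55% were higher and 2.61% lower with R+S, and the groups did not overlap for 2 of the 6 (*Kit* higher, *Kitl* lower) against 23.5% of all genes. Between R+S and sunitinib, 1 of the 6 was higher with R+S, *Csf1* at 1.48 times its level with sunitinib, and none was lower, against 2.63% and 4.58% of all genes. *Csf1* was also the only member whose R+S and sunitinib groups did not overlap, against 18.6% of all genes. The median log2 fold change of the 6 genes was -0.70 with sunitinib, -0.29 with R+S against control and 0.46 with R+S against sunitinib, beside 0.031, 0.0094 and -0.025 over all genes. The comparisons share the control or the sunitinib tumors and are not independent of each other. For sunitinib, R+S against control and R+S against sunitinib, an unadjusted p under 0.05 was reached by 3247, 3347 and 5067 of all 16645 genes. In the same order, DESeq2 called 758, 689 and 1220 of these genes higher and 719, 999 and 1825 lower.

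**Figure D2:**
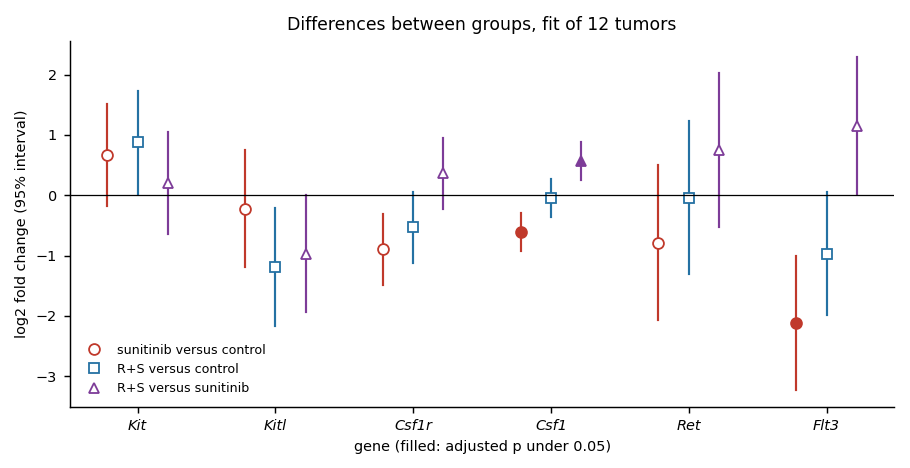
Log2 fold change of each gene in the 3 comparisons with its 95% interval, from the fit of all 12 tumors. Filled symbols mark an adjusted p under 0.05, reached by *Csf1* and *Flt3* with sunitinib against control and by *Csf1* with R+S against sunitinib, and the intervals of *Ret* were the widest in each comparison.

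*Csf1*, which encodes the growth factor that keeps macrophages alive, had the smallest coefficient of variation of the 6 genes in control (10.4%) and in sunitinib-treated tumors (11.3%). Its level was 43.6, 36.5, 39.6 and 34.5 CPM in control tumors 1 to 4 and 28.9, 24.9, 25.7 and 21.9 CPM in sunitinib tumors 5, 6, 8 and 12. All 4 sunitinib-treated tumors were below all 4 control tumors. *Csf1* fell by 0.60 on the log2 scale (SE 0.14, 95% interval -0.92 to -0.29, adjusted p = 0.0360 in edgeR), and a two-sided exact permutation test on log2 CPM gave p = 0.0286, the smallest that 4 tumors against 4 allow. In R+S tumors 4, 5, 7 and 10 the level was 33.2, 43.2, 30.6 and 42.7 CPM. These values overlapped the control tumors, with a log2 fold change of -0.04 (interval -0.36 to 0.27, adjusted p = 0.902), and all lay above the sunitinib-treated tumors. Against sunitinib, *Csf1* was higher by 0.56 on the log2 scale with R+S (SE 0.14, interval 0.25 to 0.88, adjusted p = 0.0412, exact permutation p = 0.0286). The call against control was lost without any 1 of the 4 control tumors or without sunitinib tumor 6, 8 or 12 (log2 fold changes of -0.66 to -0.54, adjusted p up to 0.104 in edgeR). The call of R+S against sunitinib was kept in 3 of 12 such fits, those without control tumor 1 or sunitinib tumor 5 or 6, and lost without any of the 9 other tumors (0.49 to 0.65, adjusted p up to 0.125). Without R+S tumor 4, 5 or 7, that comparison called 0 genes of all higher and 1, 0 and 1 lower. The main fit called 438 higher and 762 lower, so these 3 fits left almost no calls for any gene.

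*Csf1r*, the receptor for CSF1, was at 55.4, 48.7, 77.4 and 58.9 CPM in control, 32.9, 17.9, 48.3 and 29.9 CPM in sunitinib-treated and 34.7, 35.3, 40.6 and 55.5 CPM in R+S-treated tumors. The sunitinib-treated tumors lay below all control tumors, although tumor 8 nearly reached control tumor 2. The difference was -0.90 on the log2 scale (SE 0.27, interval -1.49 to -0.31) and did not pass the threshold in edgeR (adjusted p = 0.0954, exact permutation p = 0.0286). It passed in DESeq2 (adjusted p = 0.0298) and in edgeR without sunitinib tumor 8 (-1.16, adjusted p = 0.0278). With R+S, 3 of 4 tumors were below the lowest control tumor, and the log2 fold change was -0.53 (SE 0.27, interval -1.12 to 0.05, adjusted p = 0.293). R+S-treated and sunitinib-treated tumors overlapped (0.36, interval -0.22 to 0.95, adjusted p = 0.376). That value was 0.17 without sunitinib tumor 6, 0.63 without sunitinib tumor 8 and 0.19 without R+S tumor 10. *Il34*, the other CSF1R ligand, stood at 2.80 to 4.39 CPM in control, 0.898 to 5.75 in sunitinib-treated and 1.53 to 3.11 in R+S-treated tumors, and passed the test in no comparison (log2 fold changes of -0.48, -0.49 and -0.02). Sunitinib tumor 6 held its highest value, and without it the log2 fold change was -1.24 against control (adjusted p = 0.0596 in edgeR) and 0.75 for R+S against sunitinib (adjusted p = 0.145). The first was -0.29 without sunitinib tumor 5 and -0.20 without tumor 12.

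Macrophage markers were read beside *Csf1r*. Of 18 listed genes, 5 fell with sunitinib, none rose and 13 were not called, beside 2.55% lower and 1.93% higher of all genes. The median of the list was -0.53 on the log2 scale, and 4 uncalled genes had positive log2 fold changes (*Cd14* 0.77, *Itgam* 0.38, *Cd68* 0.31 and *Lyz2* 0.21, adjusted p of 0.224 to 0.737 in edgeR). *Cd74*, the invariant chain of antigen presentation, fell by 2.20 on the log2 scale (adjusted p = 0.00229 in edgeR), the mannose receptor gene *Mrc1* by 1.91 and the chemokine receptor gene *Cx3cr1* by 1.59. With R+S, *Mrc1* alone fell against control, by 2.33 on the log2 scale, beside 2.61% of all genes. DESeq2 called 5 of the 18 lower in this comparison, beside 999 of all 16645 genes. Against sunitinib, *Cd74* was higher by 1.27 with R+S while the integrin gene *Itgam* fell by 2.20, beside 2.63% and 4.58% of all genes. The summed level of the list was 934 to 1333 CPM in control, 419 to 1108 in sunitinib-treated and 657 to 1074 in R+S-treated tumors. Subtracting the mean log2 CPM of the list from that of *Csf1r* left 1.18 to 1.57 in control, 0.90 to 1.47 in sunitinib-treated and 1.27 to 1.73 in R+S-treated tumors, and these ranges overlapped. In bulk tumors, fewer cells of a type and less RNA per cell cannot be told apart. The ligand to receptor difference overlapped between the groups as well. *Csf1* minus *Csf1r* was -0.97 to -0.34, -0.91 to 0.47 and -0.41 to 0.29 on the log2 scale in the 3 groups.

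*Flt3*, the receptor of dendritic cells and their progenitors, was scarce in every tumor. It had 38, 16, 20 and 15 reads in control, 8, 4, 4 and 2 reads in sunitinib-treated and 3, 13, 8 and 19 reads in R+S-treated tumors, or 0.423 to 0.813, 0.0642 to 0.204 and 0.0832 to 0.470 CPM. All sunitinib-treated tumors were below all control tumors, and the R+S-treated tumors spread over both ranges. *Flt3* fell by 2.12 on the log2 scale with sunitinib (SE 0.51, interval -3.23 to -1.01, adjusted p = 0.0367 in edgeR, exact permutation p = 0.0286). The log2 fold change was -0.97 for R+S against control (interval -1.99 to 0.06, adjusted p = 0.273) and 1.15 for R+S against sunitinib (interval 0.02 to 2.28, adjusted p = 0.159). The call was kept without sunitinib tumor 5 or R+S tumor 4 or 10 and lost without any of the 9 other tumors (-2.22 to -1.85, adjusted p up to 0.0914 in edgeR).

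Of 10 dendritic cell markers, 8 were tested and 1 fell with sunitinib, beside 2.55% of all genes. This was the cross-presenting cell receptor gene *Clec9a*, which fell by 2.56 on the log2 scale (adjusted p = 0.0153 in edgeR, from 10 to 41 reads in control and 1 to 5 in sunitinib-treated tumors). With R+S against control, none passed in edgeR (1 at an unadjusted p under 0.05) and 1 in DESeq2, and against sunitinib none passed in edgeR (2 unadjusted) and 1 in DESeq2. The list summed to 49.4 to 58.7 CPM in control, 40.7 to 49.2 in sunitinib-treated and 40.1 to 64.9 in R+S-treated tumors. Relative to the mean of the list, *Flt3* was at -1.67 to -1.51 in control, -2.79 to -1.93 in sunitinib-treated and -2.80 to -1.37 in R+S-treated tumors on the log2 scale, so the separation of sunitinib-treated from control tumors remained on this scale. The scale depends on the markers listed. With sunitinib, log2 fold changes of the 8 tested markers ran from -2.56 to 2.25, with a median of -0.47. How often other genes separate on this scale was not counted. Whether *Flt3* changed apart from the number of dendritic cells was not tested. Lymphocyte markers (6 of 8 tested) passed in no comparison in edgeR or DESeq2 (1, 0 and 1 at an unadjusted p under 0.05), with medians of -0.92, -0.33 and 0.33 and summed levels of 10.1 to 17.2, 6.74 to 18.0 and 10.1 to 17.5 CPM.

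**Figure D3:**
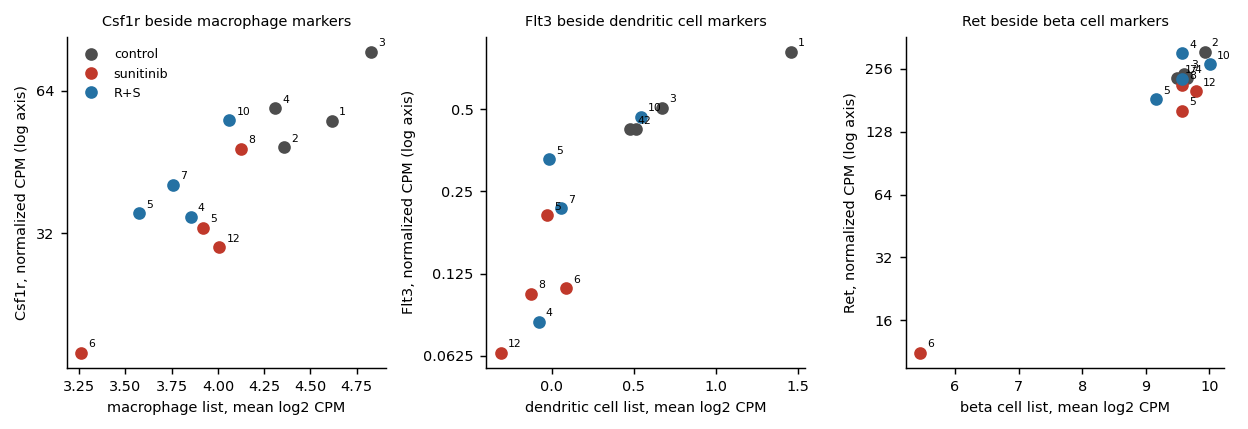
Normalized CPM (log axis) of *Csf1r*, *Flt3* and *Ret* in each tumor against the mean log2 CPM of the macrophage, dendritic cell and beta cell lists. Both values of each point come from the same library, and sunitinib tumor 6 lies lowest for *Csf1r* with the macrophage list and for *Ret* with the beta cell list.

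*Kit*, the receptor for stem cell factor, was at 23.5, 27.9, 51.6 and 56.0 CPM in control tumors. Sunitinib tumors 5, 6, 8 and 12 had 52.7, 123, 42.8 and 34.2 CPM, and R+S tumors 4, 5, 7 and 10 had 79.3, 76.8, 67.1 and 68.4 CPM. The R+S-treated tumors were all above the control tumors and lay close together, with a coefficient of variation of 8.28% against 41.3% in control and 64.4% in sunitinib-treated tumors. The log2 fold change with R+S was 0.88 (SE 0.39, interval 0.03 to 1.72) and did not pass after adjustment (adjusted p = 0.234 in edgeR, exact permutation p = 0.0286). With sunitinib it was 0.67 (SE 0.39, interval -0.17 to 1.52, adjusted p = 0.365), and 0.12 without tumor 6. Between R+S and sunitinib it was 0.20 (interval -0.64 to 1.05, adjusted p = 0.745), 0.75 without sunitinib tumor 6 (adjusted p = 0.0991) and 0.12, 0.058 and 0.0019 without tumor 5, 8 or 12. Among the control tumors, 1 and 2, whose titles spell out saline, were below 3 and 4, whose titles read Ctr. The sample descriptions of all these control tumors end in sal, and they share a prefix.

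*Kitl*, which encodes the KIT ligand, passed the test in no comparison either. Control tumors had 12.0, 15, 19.7 and 20.2 CPM, sunitinib-treated tumors 13.9, 29.9, 9.02 and 4.59 CPM and R+S-treated tumors 6.77, 8.08, 8.51 and 5.97 CPM. All R+S-treated tumors were below all control tumors, while the sunitinib-treated tumors spread beyond both groups. With R+S the log2 fold change was -1.19 (SE 0.45, interval -2.17 to -0.21, adjusted p = 0.163 in edgeR, exact permutation p = 0.0286). The adjusted p was 0.00726 when only the 8 tumors of this comparison were fitted (-1.20) and 0.0323 without sunitinib tumor 6 (-1.19), and the cause was not tested. Those fits called 1083 genes higher and 1474 lower of 16184, and 692 and 935 of 16822, against 258 and 435 of 16645 in the main fit. The values for sunitinib against control were -0.22 (SE 0.44, interval -1.19 to 0.74, adjusted p = 0.810), -0.87 without tumor 6 and 0.07 without tumor 12. R+S against sunitinib gave -0.97 (interval -1.94 to 0.01, adjusted p = 0.166) and -0.32 without tumor 6.

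Subtracting the log2 CPM of *Kit* from that of *Kitl* separated the 3 groups. The difference was -0.96, -0.89, -1.39 and -1.47 in control tumors 1 to 4, and -1.92, -2.04, -2.24 and -2.89 in sunitinib tumors 5, 6, 8 and 12. In the R+S-treated tumors 4, 5, 7 and 10 it was -3.54, -3.24, -2.97 and -3.51. The means were -1.18 ± 0.293, -2.27 ± 0.429 and -3.31 ± 0.266 (SD, n = 4), and no tumor of a group overlapped another group, including sunitinib tumor 6, in which both genes were highest. This difference is a description without a test, and both values in it come from the same library. How often other pairs of genes separate the groups was not counted. Single genes did not overlap in 10.9% of cases between sunitinib and control, 23.5% between R+S and control and 18.6% between R+S and sunitinib.

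**Figure D4:**
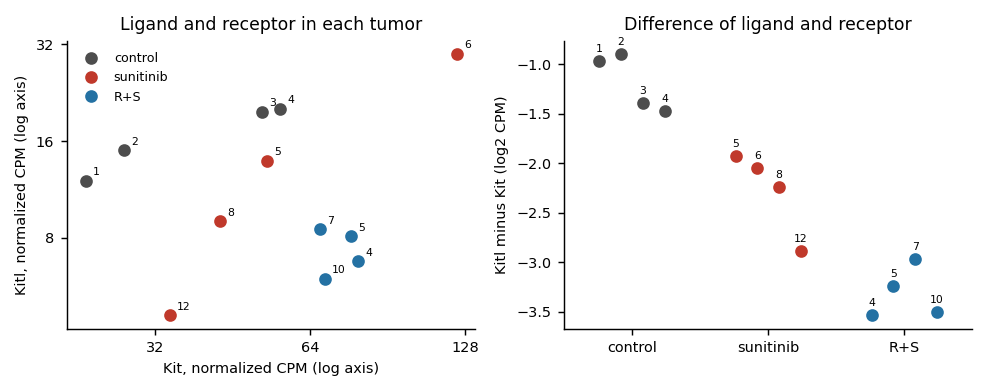
Left, normalized CPM of *Kitl* against *Kit* in each tumor (both axes log scaled); right, the difference of their log2 CPM by group, with tumor numbers. Control tumors lie between -1.47 and -0.89, sunitinib-treated tumors between -2.89 and -1.92 and R+S-treated tumors between -3.54 and -2.97.

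Markers of mast cells, the cells in which KIT is best known, were near 0. Of 10 genes, 9 stayed under 1 CPM in every tumor. The IgE receptor gene *Fcer1a* had 0 reads in all 12 tumors, the protease genes *Mcpt4* and *Tpsb2* had 0 reads in all 8 treated tumors, and *Cpa3* had at most 15 reads in a control tumor. Only *Hdc*, which encodes the histamine-forming enzyme and is not restricted to mast cells, was tested, and it was not called (-0.06, 0.13 and 0.19 in the 3 comparisons). The list summed to 0.964 to 3.64 CPM in control, 1.07 to 3.40 in sunitinib-treated and 1.72 to 2.23 in R+S-treated tumors, while *Kit* reached 23.5 to 123 CPM in the same libraries.

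*Ret*, the most abundant receptor of the 6 per kilobase, was at 231, 309, 243 and 231 CPM in control tumors. It was at 161, 11.2, 215 and 200.4 CPM in sunitinib tumors 5, 6, 8 and 12 and at 305, 184, 229 and 269 CPM in the R+S-treated tumors. Tumor 6 held less than any other tumor by a wide margin, and the 3 other sunitinib-treated tumors were also below the control tumors. The log2 fold change was -0.79 with a wide error (SE 0.59, interval -2.07 to 0.49, adjusted p = 0.486 in edgeR, exact permutation p = 0.0286) and -0.40 without tumor 6 (adjusted p = 0.256). With R+S it was -0.04 against control (interval -1.31 to 1.23, adjusted p = 0.980) and 0.75 against sunitinib (interval -0.53 to 2.03, adjusted p = 0.405), the latter 0.36 without tumor 6 (adjusted p = 0.190). Beta cell markers were low in the same tumor. Relative to the mean of that list, *Ret* was at -1.80 to -1.64 in control tumors, -2.23, -1.96, -1.81 and -2.14 in sunitinib tumors 5, 6, 8 and 12 and -1.94 to -1.32 in R+S-treated tumors on the log2 scale. On this scale tumor 6 lay within the range of its group, and sunitinib-treated tumors remained below control tumors, tumor 8 by a narrow margin. None of the 11 beta cell markers passed in edgeR or DESeq2 in any comparison, although 1 had an unadjusted p under 0.05 in each (medians of -0.39, -0.17 and 0.36). None of the 5 tested markers of other islet cells passed in edgeR either (2, 1 and 3 at an unadjusted p under 0.05, medians of -0.58, -0.35 and 0.11), while DESeq2 called 0, 1 and 2.

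The GFRA genes encode the membrane-anchored co-receptors that present ligands to RET. *Gfra1*, the GDNF co-receptor, had 0.663, 1.35, 0.533 and 0.846 CPM in control and 3.65, 27.4, 2.11 and 3.69 CPM in sunitinib-treated tumors. R+S-treated tumors had 1.72, 0.657, 1.36 and 0.965 CPM. All sunitinib-treated tumors were above all others. *Gfra1* rose by 3.44 on the log2 scale with sunitinib (SE 0.79, adjusted p = 0.0289 in edgeR, exact permutation p = 0.0286), fell by 2.97 with R+S against sunitinib (SE 0.77, adjusted p = 0.0422) and differed by 0.47 between R+S and control (adjusted p = 0.764). Without sunitinib tumor 6 the values were 1.89 (adjusted p = 0.0177) and -1.42 (adjusted p = 0.0453). The call with sunitinib was lost without any 1 of the control tumors (3.27 to 3.75, adjusted p up to 0.104 in edgeR), and that of R+S against sunitinib was kept without sunitinib tumor 5, 6 or 8 and lost without any of the 9 other tumors (-3.22 to -2.76, adjusted p up to 0.125). Without R+S tumor 4, 5 or 7, the latter comparison called 0 genes of all higher and 1, 0 and 1 lower.

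*Gfra3*, the artemin co-receptor, was the most abundant of these genes and varied widely, at 40.9, 94.5, 129 and 109 CPM in control, 20.9, 0.718, 109 and 98.6 CPM in sunitinib-treated and 53.4, 11.3, 46.3 and 47.5 CPM in R+S-treated tumors. It was lowest in sunitinib tumor 6, in which *Ret* was lowest too, and passed in no comparison (log2 fold changes of -0.71, -1.24 and -0.53). *Gfra2*, the neurturin co-receptor, was at 10.5 CPM in sunitinib tumor 6 and at 0.0642 to 1.05 CPM in the 11 others. Its log2 fold change with sunitinib was 2.31 (adjusted p = 0.343 in edgeR) and turned to -1.91 without tumor 6 (adjusted p = 0.0970), and that of R+S against sunitinib turned from -2.06 to 2.15 (adjusted p = 0.0436). *Gfra4* ranged from 2.63 to 16.6 CPM over the 12 tumors, with log2 fold changes of -0.57, -1.01 and -0.45, none of which passed.

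**Figure D5:**
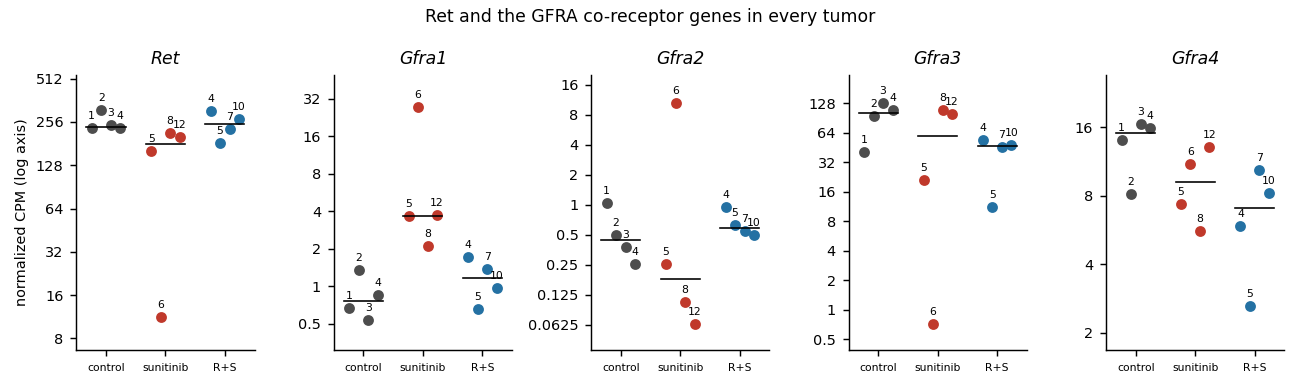
Normalized CPM (log axes that differ between panels) of *Ret* and the genes *Gfra1* to *Gfra4* in every tumor, with tumor numbers and a line at the group median. Sunitinib tumor 6 is lowest for *Ret* and *Gfra3* and highest for *Gfra1* and *Gfra2*.

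Among the other secreted ligands of RET and GFRAL, none passed the test in edgeR. *Nrtn*, which encodes neurturin, was at 0.380 to 1.54 CPM in control, 0.774 to 6.35 in sunitinib-treated and 1.39 to 5.02 in R+S-treated tumors, with log2 fold changes of 1.84 (adjusted p = 0.149), 1.73 (adjusted p = 0.161) and -0.11. In DESeq2 the first of these reached an adjusted p of 0.0436. *Artn*, for artemin, stayed between 0.171 and 0.915 CPM (0.68, 0.93 and 0.25). *Gdf15*, a stress-responsive ligand of the receptor GFRAL, was at 27.4 CPM in sunitinib tumor 6 and at 0.277 to 1.32 CPM in the 11 others. Its log2 fold change was 3.70 with sunitinib (adjusted p = 0.102) and 0.83 without tumor 6, and -3.85 for R+S against sunitinib (adjusted p = 0.0604), -0.98 without tumor 6 and -4.21 without tumor 5 (adjusted p = 0.0285). *Gdnf*, *Pspn* and *Gfral* had at most 3, 2 and 1 reads in any tumor and were not tested. *Flt3l*, the ligand gene of FLT3, was not analysed here. Of 8 tested ligand and co-receptor genes, 1 rose with sunitinib, beside 1.93% of all genes, and 1 was lower with R+S than with sunitinib, beside 4.58%. None passed with R+S against control in edgeR (2 at an unadjusted p under 0.05) or DESeq2. The medians of the 8 genes were 1.26, 0.05 and -0.49 on the log2 scale.

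Downstream of the receptors, adaptors, SRC-family kinases, phosphatases and STAT factors pass the signal on. Of 27 such genes, all tested, 2 fell with sunitinib and none rose, beside 2.55% and 1.93% of all genes. These were *Lyn*, a SRC-family kinase of blood cells, and *Inpp5d*, which encodes the phosphatase SHIP1. *Lyn* was at 16.4 to 23.2 CPM in control and 4.81 to 10.8 CPM in sunitinib-treated tumors and fell by 1.44 on the log2 scale (SE 0.26, adjusted p = 0.00625 in edgeR). *Inpp5d* fell by 1.28 (SE 0.28, adjusted p = 0.0241), from 16.0 to 22.5 CPM in control to 3.87 to 11.6 CPM. With R+S, 1 of 27 fell against control, the SRC-family kinase gene *Fyn* by 0.77 on the log2 scale (adjusted p = 0.0138 in edgeR), beside 2.61% of all genes, and 1 was higher than with sunitinib, beside 2.63% of all genes, *Stat5b*, a transcription factor that cytokine receptors activate, by 0.59 (adjusted p = 0.0418). The medians of the list were -0.10, -0.03 and 0.04, near those of all genes. Log2 fold changes ran from -2.75 to 0.56 with R+S against control. *Spry4* was at 6.59 to 9.33 CPM in control and 0.545 to 1.60 with R+S. It was at 0.638, 0.501 and 2.12 CPM in sunitinib tumors 5, 8 and 12. *Dusp6* was at 13.0 to 16.8 CPM in control and 4.55 to 7.80 with R+S. Both were highest in sunitinib tumor 6 and were called in no comparison in edgeR. DESeq2 called 3 of the 27 lower with sunitinib, 2 lower with R+S and 1 higher with R+S than with sunitinib.

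Other cell types that can express these receptors or ligands were followed by their markers. Of 10 fibroblast and pericyte markers, the pericyte genes *Rgs5* and *Pdgfrb* fell with sunitinib, by 1.41 and 1.19 on the log2 scale, and 8 were not called. Of all genes, 2.55% fell with sunitinib. The median of the list was -0.075, and 5 uncalled genes had positive log2 fold changes (0.12 to 0.46, among them *Pdgfra*, *Acta2* and the collagen genes). *Rgs5* also fell with R+S by 0.79 and was higher by 0.63 with R+S than with sunitinib. Of 7 duct markers, *Sox9*, *Spp1* and *Muc1* rose with sunitinib, by 3.81, 3.10 and 2.78, beside 1.93% of all genes that rose. With R+S against control, none passed in edgeR (3 at an unadjusted p under 0.05) and 2 in DESeq2.

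For each member, up to 3 genes with the most similar course over the 12 tumors were taken from 13234 candidates by Pearson's correlation of log2 CPM. *Csf1r* was followed most closely by *Vav1* (r = 0.975), a signaling protein of blood cells, by *Stab1* (0.973), a scavenger receptor of macrophages and sinusoidal endothelium, and by *Gpr65* (0.972). *Ret* was followed by *Klhl32* (0.990), by *Scg3* (0.986), a granin of secretory granules, and by *Entpd3* (0.986). Among the nearest genes to *Csf1* were *Trim34a* (0.948) and the mitochondrial gene *mt-Co1* (0.940). *Flt3* was nearest to *Dhx58* (0.955), *Cxcl9* (0.928) and *Lpxn* (0.926), *Kit* to *Luc7l3* (0.957), *Trmt9b* (0.950) and *Brd8* (0.923), and *Kitl* to *Grb10* (0.945), *Piezo1* (0.932) and *Arhgef10* (0.930). *Dhx58*, *Trim34a* and *Cxcl9* are known as interferon-responsive genes. These are the highest of many correlations, the tumors differ in treatment and in cell markers, and no p is given.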

How the data were processed

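RNA-seq was performed on 12 tumors, 4 per group, grouped by the sample labels. For each tumor the authors deposited raw gene counts from htseq-count as whole numbers, not normalized, with 5 closing total lines that were left out. The submitters' processing notes name cutadapt 1.2.1, TopHat2 2.0.9, HTSeq 0.5.4p3 and GRCm38 without parameters. The annotation release and the strand setting are not given in the sources used here. Reads that align to several places are normally not counted by this tool. Symbols, lengths and positions were taken from GENCODE M21, which paired 37607 of 38924 identifiers, and promoters from RefSeq (GRCm38.p6).

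All 12 tumors entered 1 fit in edgeR 4.0.16 (R 4.3.3) with TMM normalization and filterByExpr (minimum count 10, minimum total 15), and the quasi-likelihood F-test was adjusted by the Benjamini-Hochberg method over 16645 genes at a threshold of 0.05. Standard errors are the absolute log2 fold change over the square root of F. Two-sided exact permutation tests used log2 CPM (prior count 2) over 70 arrangements. The fit was tested on simulated counts of 16506 genes: for sunitinib versus control it recovered 39 of 100 genes changed by 1 and 70 of 100 changed by 2 on the log2 scale, and for R+S versus sunitinib 37 and 79. It also called 7 and 6 unchanged genes in these comparisons, and 0 for R+S versus control. The simulated tumors shared 1 spread per gene, without a tumor that stood apart like sunitinib tumor 6. The depth of each tumor makes counting error small for all members but *Flt3*, and PCR copies were not marked, so counting error is a lower bound. The lowest chi-square per degree of freedom between tumors of a group was 22.8, so no tumor was a copy of another.

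The members, marker lists and pathway lists were chosen with earlier results of these data known. Named genes were all members, all listed ligands and co-receptors, up to 3 called genes with the largest change per other list and comparison, and the 3 genes most correlated with each member among those with an average log2 CPM of at least 0 and no predicted-gene symbol. Some genes that this rule selects are not reported here. *Fcer1a*, *Mcpt4*, *Tpsb2*, *Cpa3*, *Hdc*, *Spry4* and *Dusp6* are named outside that rule. Alternatives were DESeq2 1.42.0, other normalizations, no filter, only the 8 tumors compared, an acinar covariate, treated tumors of 1 prefix summed (control tumors kept apart) and each tumor left out.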

Additional observations from a re-analysis of the deposited data

Results flagged for a closer look

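Dixon's ratio was applied to 60 groups of 4 tumors (20 genes or differences, 3 groups each). It marked 3 single tumors as far from the others of their group. Chance alone would mark about 1 in 20 groups, so no more groups were marked than chance would mark. *Ret* was at 3.49 log2 CPM in sunitinib tumor 6 against 7.33 to 7.75 in the other sunitinib-treated tumors. *Gdf15* was at 4.78 log2 CPM in the same tumor against -0.08 to 0.45 in the others. *Gfra3* was at 3.50 log2 CPM in R+S tumor 5 against 5.53 to 5.74 in the other R+S-treated tumors. Beta cell and acinar markers summed to 2170 and 33540 CPM in sunitinib tumor 6 and to 41890 and 10905 CPM in R+S tumor 5, and their part in the marked values was not tested.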

How the results depend on the processing

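Directions of the 6 members were kept under DESeq2, both other normalizations, no filter and the 8-tumor fits, while calls near the threshold moved. The causes were not tested. With no filter, *Csf1* gave 0.58 for R+S versus sunitinib (adjusted p = 0.0618 in edgeR) and *Flt3* -2.13 for sunitinib versus control (0.0521). With only the 8 tumors compared, *Csf1* gave 0.56 (0.116) and -0.60 (0.0738), and *Kitl* -1.20 for R+S versus control (0.00726). With treated tumors of 1 prefix summed, which leaves 2 sunitinib and 3 R+S samples beside the 4 control tumors kept apart, *Csf1* gave 0.63 for R+S versus sunitinib (0.0547) and *Flt3* -2.26 for sunitinib versus control (0.0959). In the same fit the log2 fold change of *Ret* was 0.033 for R+S versus control, and that of *Il34* was 0.27 for R+S versus sunitinib. With no filter, the log2 fold change of *Il34* in the latter comparison was 0.012. DESeq2 called *Csf1r* with sunitinib (-0.89, adjusted p = 0.0298) and 3 members in all, and gave no adjusted p for 1 member in R+S versus sunitinib. The member count for sunitinib versus control was 1 with no filter, with the 8 tumors and with prefixes summed, and 0 with the acinar covariate. For R+S versus sunitinib it was 0 in the first 3 of these, and for R+S versus control 1 with the 8 tumors. The 8-tumor fits called 141 genes higher and 239 lower of 16293 for sunitinib versus control. They called 1083 and 1474 of 16184 for R+S versus control, and 0 and 3 of 16167 for R+S versus sunitinib. For sunitinib versus control and R+S versus sunitinib, no filter gave 294 and 382, and 209 and 292, of 26179. Prefixes summed gave 355 and 397, and 434 and 609, of 17127. The acinar list separates treated from control tumors, and with it as a covariate 0 genes of all were called in either comparison with control: *Csf1* gave -1.66, *Flt3* -5.05, *Ret* 0.24 with sunitinib and 0.86 with R+S, *Gdf15* -2.39, *Gfra2* -3.30 and -4.23, *Gfra3* 3.29 and 2.27, *Gfra4* 0.42 with sunitinib, and *Il34* 0.23 and *Nrtn* 0.028 for R+S versus sunitinib.

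With each tumor left out, sunitinib versus control ranged from -0.66 to -0.54 for *Csf1*, -2.48 to -1.85 for *Flt3*, -1.16 to -0.70 for *Csf1r*, -0.87 to 0.070 for *Kitl* and -1.91 to 2.84 for *Gfra2*, with 0 to 2 members called. R+S versus control ranged from -1.32 to -1.09 for *Kitl*, -0.12 to 0.045 for *Csf1*, -0.16 to 0.081 for *Ret* and -0.82 to 0.18 for *Gdf15*, with 0 to 1 members called. R+S versus sunitinib ranged from 0.49 to 0.65 for *Csf1*, -2.46 to 2.15 for *Gfra2*, -0.29 to 0.75 for *Il34* and -0.59 to 0.60 for *Nrtn*, with 0 to 1 members called. Without R+S tumor 4, 5 or 7, that comparison called 0 genes of all higher and 1, 0 and 1 lower. No paired analysis was possible because the groups share fewer than 2 replicate numbers. Depth limits *Flt3*, which had 2 to 38 reads per tumor.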
